A study of Mus musculus with 19 samples.

Results

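Microglia are the resident macrophages of the brain, and 9 genes that mark them were followed here through RNA-seq and ribosome profiling of mouse hippocampal slices: Csf1r, Cx3cr1, P2ry12, Tmem119, C1qa, C1qb, C1qc, Trem2 and Tyrobp. They were taken by symbol from the deposited tables, and all 9 were found among the 20436 genes of each table. All 9 passed the filter on low counts in both assays. The slices came from wild-type male mice of 28 to 42 days by the sample labels (30 to 40 days by the methods, on a C57BL/6J background) and received the group I metabotropic glutamate receptor agonist DHPG at 100 µM, or vehicle (ACSF, called basal), for 5 min. Every slice was then placed in cycloheximide at 100 µg/ml, which stops elongating ribosomes, so that the basal group carries that treatment too. RNA-seq gave 4 basal and 5 DHPG libraries, and sequencing of the mRNA pieces that a ribosome shields from nuclease (ribosome-protected fragments, RPFs) gave 5 basal and 5 DHPG libraries. Each pool held slices of 6 mice, by the paper per genotype and condition, so the spread between mice is not seen. Whether basal and DHPG slices of the same replicate number came from the same mice is not given by the labels. Whole slices hold all cell types. In such bulk samples fewer microglia and less RNA per microglial cell cannot be told apart.

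Microglia live on signals received at their surface. CSF1R is the receptor tyrosine kinase on which their survival depends, CX3CR1 binds the neuronal chemokine fractalkine (CX3CL1), P2RY12 senses ADP and steers the processes that survey synapses, and TMEM119 is a membrane protein used to tell microglia from other macrophages. The A, B and C chains of C1q assemble into the molecule that starts the classical complement cascade and that tags synapses during pruning. TREM2 binds lipids and apolipoproteins and signals through the adaptor TYROBP (DAP12), which carries an activation motif read by the kinase SYK.

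Promoter windows in RefSeq were not examined for Csf1r, C1qa, Tmem119 and Tyrobp. They were examined for 5 of the 9 genes (Cx3cr1, P2ry12, C1qb, C1qc and Trem2). Those of 3 are shown because the RNA of these genes differed most between replicates beside Tmem119, as described further on, and because their windows hold the core of the motif bound by PU.1, the transcription factor that defines macrophages. Each window runs from 250 bases before to 50 bases after the start of the gene in RefSeq on GRCm38.p6, is written 5′ to 3′ on the strand of the gene, and has in capitals each match to GAGGAA or, on the other strand, TTCCTC. C1qb (chr4:136886151-136886450, minus strand) and C1qc (chr4:136892865-136893164, minus strand) are neighbours, and Trem2 is at chr17:48346151-48346450 on the plus strand.
C1qb: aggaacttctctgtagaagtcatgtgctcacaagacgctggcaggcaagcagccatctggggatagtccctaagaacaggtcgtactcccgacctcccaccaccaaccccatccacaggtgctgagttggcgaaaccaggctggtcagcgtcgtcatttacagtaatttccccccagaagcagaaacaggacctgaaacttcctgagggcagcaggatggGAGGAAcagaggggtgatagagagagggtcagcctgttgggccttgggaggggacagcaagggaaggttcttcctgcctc
C1qc: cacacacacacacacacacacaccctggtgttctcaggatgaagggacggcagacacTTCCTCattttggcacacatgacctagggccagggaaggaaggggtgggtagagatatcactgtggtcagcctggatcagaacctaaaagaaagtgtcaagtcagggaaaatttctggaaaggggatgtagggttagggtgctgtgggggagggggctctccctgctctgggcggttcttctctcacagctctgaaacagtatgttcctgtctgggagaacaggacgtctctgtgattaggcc
Trem2: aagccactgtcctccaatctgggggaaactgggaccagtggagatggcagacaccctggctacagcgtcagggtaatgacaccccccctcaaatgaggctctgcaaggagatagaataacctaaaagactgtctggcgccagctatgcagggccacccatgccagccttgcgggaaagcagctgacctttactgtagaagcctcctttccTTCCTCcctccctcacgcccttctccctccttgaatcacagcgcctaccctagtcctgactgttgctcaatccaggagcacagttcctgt
Counted from the start of the gene, the first base of the match lay at -30 in C1qb, at -193 in C1qc and at -40 in Trem2. The windows of Cx3cr1 and P2ry12 hold neither form. Among all 32851 windows of this length 9289 (28.3%) hold a match on either strand. A match in 3 of the 5 windows examined thus describes these letters and says nothing about binding.

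All 9 genes were measured above the floor in every library, with read counts from 55 (Tmem119, RPF DHPG replicate 1) to 3787 (Csf1r, RPF basal replicate 3). RNA libraries held between 4870813 and 7793244 counts in total and RPF libraries between 5692064 and 22092434, and levels below are CPM, counts scaled by edgeR to library size. The summed level of the 9 genes was 466.2 to 733.1 CPM in basal RNA and 370.5 to 517.4 CPM in basal RPFs, against 12860 to 13640 CPM of basal RPFs for 12 neuronal markers. Markers of macrophages at the borders of the brain, which share Csf1r and Tyrobp, were much lower: the 13 genes summed to between 30.1 and 40.9 CPM in RPFs, and Mrc1, the highest of them in RPFs, had 11.1 ± 2.08 CPM (SD, n = 5) in basal slices. Markers of blood cells, 16 of which were in the tables, summed to between 1.04 and 5.58 CPM in RPFs, with the monocyte markers Ccr2 and Ly6c2 at 0 counts in the 5 basal RPF libraries. A count of 0 in a library still allows an expected count of up to 3 there, a limit that covers counting error only.

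Per kilobase of coding sequence, the 3 C1q chains had the highest basal RPF levels. C1qb had 115.8 ± 11.2 CPM per kb (SD, n = 5), C1qa 100.4 ± 15.4 and C1qc 79.6 ± 10.7. They were followed by Csf1r with 49.6 ± 9.45, P2ry12 with 43.1 ± 9.86, Tyrobp with 33.3 ± 2.58, Cx3cr1 with 31.6 ± 2.76, Trem2 with 21.9 ± 2.95 and Tmem119 with 12.0 ± 1.66 CPM per kb. Of the 8 neighbouring pairs in this order, 6 differed in the same direction in all 5 replicates (exact two-sided sign-flip permutation test, p = 0.0625 each, the smallest it can give with 5 replicates), whereas P2ry12 and Tyrobp (p = 0.1875) and Tyrobp and Cx3cr1 (p = 0.3125) did not differ beyond their spread. Among the 12716 genes with a length, C1qb stood at the 87.2th percentile of basal RPF level per kb and Tmem119 at the 40.9th.

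Per kilobase of transcript and by mean log2 level, the RNA order was similar at the top and different below. C1qb had 81.9 ± 22.0 CPM per kb of basal RNA (SD, n = 4), C1qa 71.1 ± 8.75, Csf1r 53.1 ± 11.6 and C1qc 51.1 ± 11.7. Tyrobp had 24.97 ± 2.34, P2ry12 16.8 ± 1.77, Trem2 16.9 ± 4.18, Cx3cr1 9.38 ± 1.18 and Tmem119 7.50 ± 2.98 CPM per kb. C1qb and C1qa, Csf1r and C1qc, P2ry12 and Trem2, and Cx3cr1 and Tmem119 did not differ beyond their spread, and the exact two-sided sign-flip test cannot go below p = 0.125 with 4 replicates. Cx3cr1 was thus at the 49.6th percentile of RNA level per kb and at the 64.6th of RPF level per kb, while Csf1r was at the 89.4th and the 74.1th.

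C1qa (chr4:136895917-136898803), C1qb (chr4:136880129-136886187) and C1qc (chr4:136889804-136893065) lie side by side on the minus strand of mm10 with 3 exons each. Because 1 molecule of C1q needs the chains in equal numbers, their shares of the summed C1q level per kb were compared. In basal RPFs C1qa made up 33.9 ± 1.85%, C1qb 39.2 ± 1.29% and C1qc 26.9 ± 1.7% (SD, n = 5). After DHPG the shares were 33.3 ± 0.937%, 39.2 ± 1.28% and 27.5 ± 1.36% (SD, n = 5). Each chain thus moved by less than its spread between replicates. In basal RNA the shares were 35.3 ± 3.6%, 39.7 ± 3.33% and 25 ± 0.923% (SD, n = 4), with the C1qa and C1qb shares spreading more widely than in RPFs.

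The ratio of basal RPF to RNA, each per kilobase, separated the receptors from each other more than the other members. Csf1r, the longest of the 9 with 2931 bases of coding sequence, had a log2 ratio of -0.050 ± 0.097 (SD, n = 4 lysates), the 25th percentile of the 12224 genes with a ratio. Its values were 0.088, -0.067, -0.14 and -0.082 in replicates 1 to 4, the lowest of all members in replicates 1 to 4. Cx3cr1 had 1.76 ± 0.12, the 72.3th percentile, with 1.745, 1.598, 1.85 and 1.85 in the 4 lysates. P2ry12 had 1.37 ± 0.45, with 1.14, 1.48, 1.95 and 0.93. The values of Cx3cr1 and Csf1r did not overlap, and their means were 1.81 apart on the log2 scale, a 3.51-fold difference. Much of this distance comes from the lengths used. Before scaling by length the mean log2 ratio was -0.405 for Cx3cr1, the 40.5th percentile, and -0.762 for Csf1r, the 28.3th. The C1q chains lay close together at 0.52 ± 0.20 (C1qa), 0.57 ± 0.33 (C1qb) and 0.68 ± 0.37 (C1qc), as did Trem2 at 0.41 ± 0.28 and Tyrobp at 0.45 ± 0.19, while Tmem119 had 0.74 ± 0.50. The median over the 9 genes was 0.57 against 0.87 over all genes, and 2 of 9, Cx3cr1 and P2ry12, were above that median (3 of 9 without replicate 3). Among 15 other genes of homeostatic microglia (such as Fcrls and Itgb5) 3 were above it, with a median of 0.51, whereas 13 of 20 other myeloid genes (such as Ctss, Coro1a and Itgam) were, with a median of 1.34. These ratios carry no test, and they depend on the transcript taken as the length: with the median length of all coding transcripts, Cx3cr1 was at 1.5 and Csf1r at -0.18. In the DHPG lysates Csf1r was at 0.10.

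**Figure D1:**
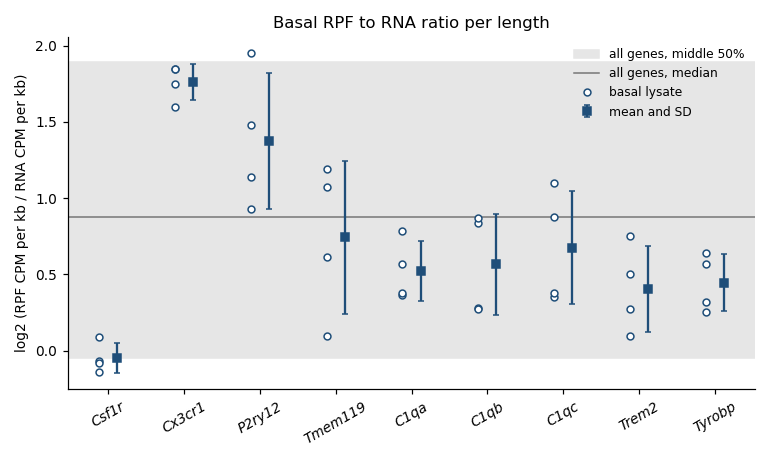
Log2 ratio of RPF to RNA, each in CPM per kb, in the 4 basal lysates (open circles) with the mean and SD (squares), over the middle 50% (band) and the median (line) of all genes. Cx3cr1 and P2ry12 have means above the median line of 0.87, and Csf1r lies at the lower edge of the band.

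The question put to the slices was what 5 min of mGluR stimulation does to RNA and to ribosome occupancy. In RNA, none of the 9 genes passed an adjusted p of 0.01 in edgeR, where 1 of 12935 genes (0.00773%) did, and none had an unadjusted p under 0.05, where 1037 genes did. The median log2 fold change of the 9 was 0.0015 (from -0.055 for P2ry12 to 0.12 for Cx3cr1), against 0.0068 over all genes, and 5 of 9 were higher after DHPG. Basal and DHPG libraries overlapped for all 9.

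In RPFs, all 9 genes had a higher level after DHPG than in basal slices, by small amounts, and none passed an adjusted p of 0.05 in edgeR, where 29 of 13208 genes (0.220%) did. The log2 fold changes ran from 0.037 (Tmem119) to 0.16 (Tyrobp) with a median of 0.11, that is from 2.63% to 12.1% higher, whereas the median of all genes was 0.0031 and 51.4% of genes were higher. At an unadjusted p under 0.05 there were 4 of 9, Csf1r, C1qc, C1qb and Cx3cr1, beside 865 of all genes (6.55%) that were higher at that level. In every one of the 5 pairs of basal and DHPG slices 4 of 9 were higher, Csf1r, Cx3cr1, Trem2 and Tyrobp, beside 680 of all genes (5.15%). The 9 genes come from the same cells, so they do not count as 9 independent observations.

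Csf1r had the smallest p of the 9. Its basal RPF levels were 152.3, 158.1, 171.8, 105.1 and 123.9 CPM in replicates 1 to 5, and 184.5, 164.2, 175.4, 130.0 and 131.9 CPM after DHPG. The DHPG slice was higher in each replicate, but the groups overlapped, since the levels also differed between replicates. The log2 fold change was 0.13 with a standard error of 0.037 (edgeR, adjusted p = 0.123). In RNA its levels were 234.8, 271.4, 310.1 and 182.3 CPM in basal replicates 1 to 4 and 257.4, 284.4, 285.0, 185.9 and 195.8 CPM in DHPG replicates 1 to 5, a log2 fold change of 0.026 (standard error 0.069).

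Cx3cr1, which lies on the minus strand of chromosome 9, had basal RPF levels of 31.2, 31.9, 35.8, 28 and 31.5 CPM and DHPG levels of 35.6, 34.3, 37.4, 31.6 and 32.7 CPM in replicates 1 to 5. Every pair was higher after DHPG, with overlap between the groups (log2 fold change 0.10, standard error 0.051, edgeR adjusted p = 0.460). Its RNA was higher in 4 of 4 pairs as well, as was that of C1qb, and the share of all genes for which this holds was not counted. Cx3cr1 RNA went from 41.8, 47.3, 44.6 and 34.96 CPM to 43.3, 47.5, 51.3 and 40.1 CPM (0.12, standard error 0.084, edgeR adjusted p = 0.761). Its RPF to RNA ratio differed by -0.012 (standard error 0.088). The ligand of this receptor, Cx3cl1, made mainly by neurons, had a log2 fold change of 0.11 in RPFs (standard error 0.030, edgeR adjusted p = 0.136) and 0.062 in RNA.

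P2ry12 and Tmem119 had the smallest RPF changes. P2ry12, whose gene on chromosome 3 lies inside Med12l on the opposite strand, had 40.6, 47.5, 55.7, 30.6 and 37.1 CPM in basal RPFs and 45.6, 46.2, 55.5, 36.4 and 36.8 CPM after DHPG. It was higher in 2 of 5 pairs, those of replicates 1 and 4 (0.043, standard error 0.049, edgeR adjusted p = 0.807). Tmem119 on chromosome 5, the least abundant in RPFs with Tyrobp, had 9.62, 10.8, 8.80, 7.47 and 10.1 CPM in basal RPFs and 9.79, 10.3, 10.5, 8.10 and 8.87 CPM after DHPG, higher in 3 of 5 pairs (0.037, standard error 0.091, adjusted p = 0.924).

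Among the C1q chains, C1qc had basal RPF levels of 64.4, 46.7, 58.3, 49.6 and 50.8 CPM and DHPG levels of 74.4, 54.0, 56.3, 59.4 and 57.3 CPM. The DHPG slice was higher in all replicates but the third (0.14, standard error 0.046, edgeR adjusted p = 0.207), and its RNA differed by -0.0075 (standard error 0.078). C1qb had 89.0, 80.2, 88.8, 72.3 and 74.3 CPM in basal RPFs and 105.3, 88.6, 84.5, 87.7 and 76.4 CPM after DHPG, again higher in all replicates but the third (0.11, standard error 0.042, adjusted p = 0.337). C1qa was higher in 4 of 5 pairs, by 0.024 to 0.42 on the log2 scale, with the largest difference in replicate 4 and the opposite sign in replicate 2 (0.087, standard error 0.046, adjusted p = 0.499).

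Trem2 (chromosome 17) and its adaptor Tyrobp (chromosome 7) were each higher in 5 of 5 RPF pairs. Trem2 went from 17.5, 13.4, 16.8, 12.95 and 14.7 CPM in basal slices to 19.4, 14.7, 16.9, 15.5 and 15.7 CPM (0.11, standard error 0.070, edgeR adjusted p = 0.604). Tyrobp had 8.69, 9.25, 9.62, 10.5 and 8.82 CPM in basal slices and 11.4, 10.8, 9.71, 11.6 and 10.2 CPM after DHPG, the largest estimate of the 9 with a wide error (0.16, standard error 0.087, adjusted p = 0.501). Tyrobp rests on 56 to 212 reads per RPF library, and Csf1r with 901 to 3787 reads in basal RPFs did not pass either.

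**Figure D2:**
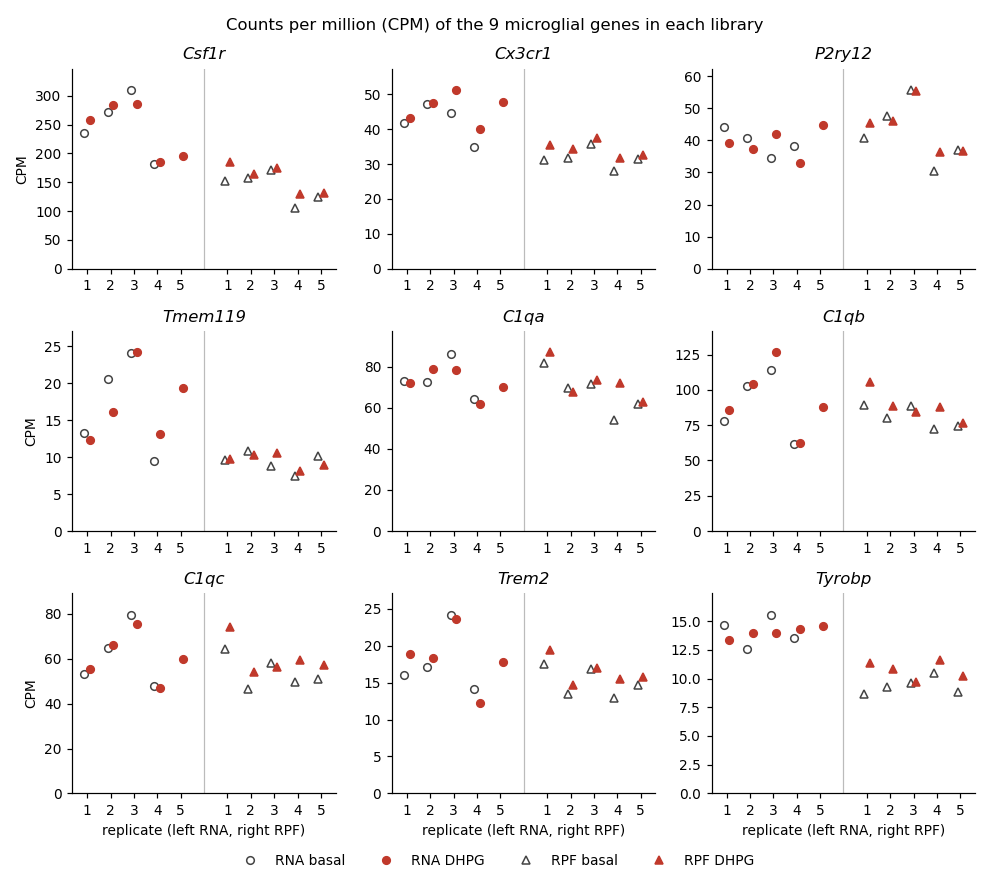
CPM of each gene (vertical axis, from 0) in replicates 1 to 5 of RNA (circles, left) and RPF (triangles, right), with basal slices open and DHPG slices filled. The RPF triangles of Csf1r, Cx3cr1, Trem2 and Tyrobp are higher after DHPG in all 5 replicates.

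**Figure D3:**
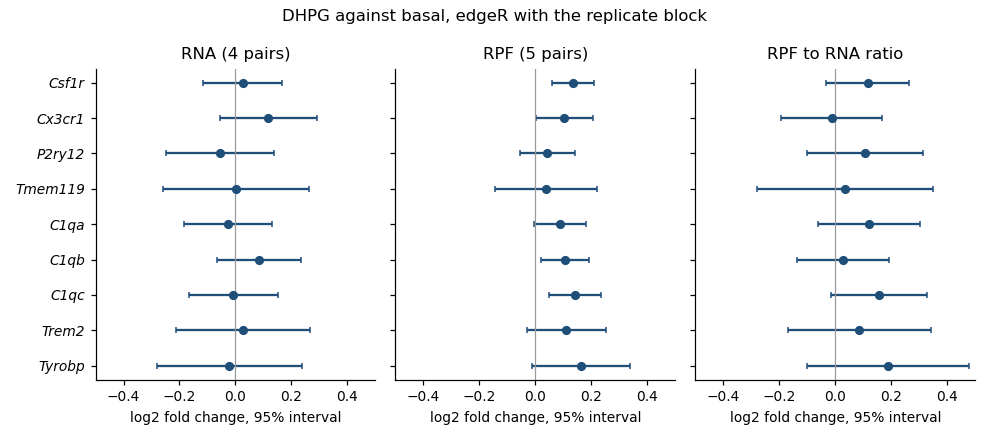
Log2 fold change of DHPG against basal with its 95% interval for RNA, RPF and the RPF to RNA ratio, from edgeR with replicate number as a block. All 9 RPF estimates lie above 0, from 0.037 to 0.16, while the RNA estimates lie on both sides of 0.

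The size of the RPF difference was not the same in each replicate. The median over the 9 genes was 0.19 in replicate 1, 0.10 in replicate 2, 0.013 in replicate 3, 0.26 in replicate 4 and 0.052 in replicate 5. All 9 were higher in replicates 1 and 4, 6 in replicates 2 and 3, and 7 in replicate 5. In RNA the medians were 0.052, 0.027, -0.031 and 0.023 in replicates 1 to 4. Without replicate 3, Csf1r (0.17, edgeR adjusted p = 0.0430) and C1qc (0.21, adjusted p = 0.0304) passed the RPF threshold, with 71 genes called in all. Without the filter on low counts Csf1r passed (edgeR adjusted p = 0.0401), with 96 genes called in all. After ComBat followed by DESeq2, the kind of test the study used, Csf1r and C1qc passed (adjusted p = 0.00199 and 0.0152), with 429 genes called in all. The main fit called 29 genes. DESeq2 with the block gave none of the 9 an adjusted p in RPFs, and over the 10 alternatives that gave one the adjusted p of Csf1r ran from 0.00199 to 1 and that of C1qc from 0.0152 to 1.

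**Figure D4:**
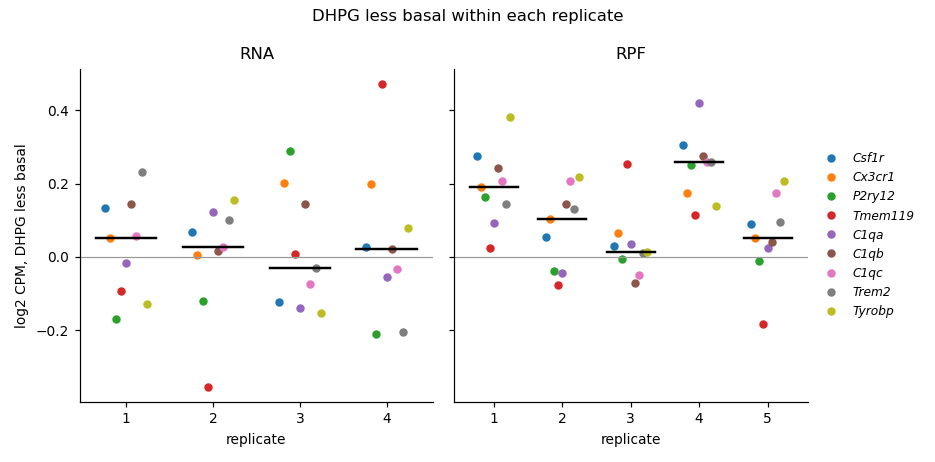
Log2 CPM of DHPG less basal for each gene (colored points) within each replicate, with the median of the 9 genes as a black bar, in RNA (left) and RPF (right). The RPF bars stand at 0.26 and 0.19 in replicates 4 and 1 and at 0.013 in replicate 3, and the RNA bars at -0.031 to 0.052.

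Marker lists of other cells moved with these pairs to different degrees. The summed RPF level of 12 oligodendrocyte markers differed between DHPG and basal by 0.12, 0.21, 0.017, 0.21 and -0.12 on the log2 scale in replicates 1 to 5, and 1 of them, Mag, a myelin adhesion protein, passed the threshold (0.16, standard error 0.035, edgeR adjusted p = 0.0337). The sum of the 9 microglial genes differed by 0.21, 0.070, 0.0070, 0.29 and 0.068. That of 12 neuronal markers differed by 0.0032 to 0.066 and that of 12 astrocyte markers by 0.022 to 0.080. Gene by gene, 9 of 12 oligodendrocyte (median 0.092), 11 of 12 astrocyte (0.059), 7 of 12 neuronal (0.032), 2 of 12 endothelial and mural (-0.13) and 3 of 8 tested border macrophage markers (-0.057) were higher after DHPG in RPFs. The part of a differing share of glial cells in the pairs was not tested.

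The RPF to RNA ratio, tested as the interaction of assay and treatment, passed the test for none of the 9 genes. None of 12691 genes (0%) passed an adjusted p of 0.05 in edgeR there, 859 had an unadjusted p under 0.05 and none of these was among the 9. The estimates were above 0 for 8 of 9 (49.5% of all genes), with a median of 0.11 and the largest for Tyrobp (0.19, standard error 0.14, adjusted p = 0.832) and C1qc (0.16, standard error 0.084, adjusted p = 0.757). C1qc and Tyrobp were higher in 4 of 4 lysate pairs, as were 833 of all genes (6.56%).

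Other genes of the same cells and pathways gave smaller medians in RPFs. None of the genes in the lists below passed the threshold in RNA, RPF or the ratio. Of 15 other homeostatic genes 11 were higher after DHPG (median 0.050), among them Itgb5, an integrin chain (0.15, standard error 0.058, edgeR adjusted p = 0.317), with Fcrls at 0.069. Of 20 other myeloid genes 13 were higher (median 0.024), among them Itgam, the CD11b chain of complement receptor 3 (0.15, standard error 0.051, adjusted p = 0.240), while Coro1a and Ctss were at -0.0036 and 0.029. Of 13 kinases, phosphatases and adaptors below Tyrobp and Csf1r 5 were higher (median -0.013), with Fyn at -0.013, Grb2 at -0.031 and Pik3cd at 0.032. Of 6 ligands 5 were higher (median 0.099), among them Apoe and Clu, lipid carriers bound by TREM2, at 0.054 and 0.092. Of 11 complement genes beyond C1q 8 were higher (median 0.047), with C4b at 0.14 (standard error 0.057, adjusted p = 0.345) and Csmd1 at -0.0025.

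Of the genes that microglia induce early on activation, 19 of 22 were higher after DHPG in RNA, with a median of 0.15. At an unadjusted p under 0.05 there were 3 that were higher, beside 673 of all genes (5.20%). In RPFs 16 of 23 were higher, with a median of 0.031, and at that p there were 1 higher and 2 lower. Their RPF to RNA ratio was lower for 19 of 22 (median -0.12), and none passed the threshold of any of these tests. The oligodendrocyte markers had the same signs, with 12 of 12 higher in RNA (median 0.15) and 11 of 12 lower in the ratio (median -0.055). Socs3, a feedback inhibitor of cytokine signaling that other cells also make, was at 0.20 in RNA (standard error 0.095, adjusted p = 0.618) and 0.15 in RPFs (standard error 0.059, adjusted p = 0.346). Nfkbia and Ptgs2, likewise not particular to microglia, were at 0.052 and 0.15 in RNA and at 0.052 and 0.080 in RPFs. The 2 that were lower in RPFs, named after their values were seen, were the cytokine gene Il1a (-0.18, edgeR unadjusted p = 0.000785) and the chemokine gene Ccl12 (-0.26, unadjusted p = 0.0420). Of 14 genes linked to disease-associated microglia 10 were higher in RPFs (median 0.051), with Ctsb, Ctsd and Ank at 0.054, 0.039 and 0.019.

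The level of most of the 9 genes differed between replicates. Replicate number, tested by edgeR with treatment as a term, was called at an adjusted p of 0.05 for 7 of 9 genes in RNA, where 6319 of 12891 genes (49.0%) were, and for 7 of 9 in RPFs, where 6374 of 13208 (48.3%) were. The genes not called were P2ry12 and Tyrobp in RNA and Tmem119 and Tyrobp in RPFs. The distance between the highest and the lowest replicate had a median of 0.69 on the log2 scale in RNA (from 0.15 for Tyrobp to 1.10 for Tmem119) and 0.43 in RPFs (from 0.21 for Tyrobp to 0.73 for P2ry12).

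In RNA most of the 9 genes had the same replicates at the ends of their range. Replicate 4 was the lowest of replicates 1 to 4 for 8 of 9 (32% of all genes) and replicate 3 the highest for 8 of 9 (34.6% of all genes). Tmem119 ranged 2.14-fold, from 9.45 CPM in basal and 13.2 CPM in DHPG slices of replicate 4 to 24.1 and 24.2 CPM in replicate 3. C1qb ranged 1.94-fold, with 61.5 and 62.4 CPM in replicate 4 against 114.4 and 126.6 CPM in replicate 3. For both genes the slices of replicate 4 were below those of replicate 3 under both treatments. P2ry12 was highest in replicate 1 instead and Tyrobp lowest in replicate 2, and neither was called. In RPFs replicate 4 was the lowest for 5 of 9 (24.7% of all genes) and replicate 3 the highest for 3 of 9 (16.7% of all genes), while C1qa, C1qb, C1qc and Trem2 were highest in replicate 1. Without RNA replicate 3, replicate number was called for 4 of 9 (Cx3cr1, C1qa and Trem2 were lost) and for 3585 genes in all. Without replicate 4 it was called for 5 of 9 (Cx3cr1 and C1qa were lost) and for 5101 genes in all.

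A trend with base composition moved with these RNA differences. Between RNA replicates 3 and 4 the tenth of genes with the highest GC content differed by a median of 0.49 on the log2 scale and the tenth with the lowest by -0.61. In RPFs the same medians were -0.19 and 0.17. P2ry12 has 38.6% GC in its transcript, the 1.78th percentile, and differed by 0.093 between RNA replicates 3 and 4, while Tmem119, C1qb, C1qc and Trem2 have 57.4% to 59.1% and differed by 0.71 to 1.10. C1qa and Tyrobp, with 59.5% and 55.5%, differed by 0.38 and 0.082. With these trends, and those with length, taken out of each library, an alternative chosen after the data were seen, P2ry12 was called in RNA (edgeR adjusted p = 0.000193) with a difference of 0.73 between replicates 3 and 4, and C1qa, C1qc and Trem2 no longer passed (adjusted p = 0.0525, 0.115 and 0.0836), which left 5 of 9 called beside 5010 genes in all. In RPFs 8 of 9 were then called, with Tmem119 gained (adjusted p = 0.0108), beside 5470 genes in all. Replicate 3 was then above replicate 4 for 7 of 9 genes in RNA (median 0.40) and for 8 of 9 in RPFs (median 0.38). Csf1r, Cx3cr1, P2ry12 and Trem2 were lowest in replicate 4 and highest in replicate 3 in both assays after that step, and Tyrobp was not called in either.

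**Figure D5:**
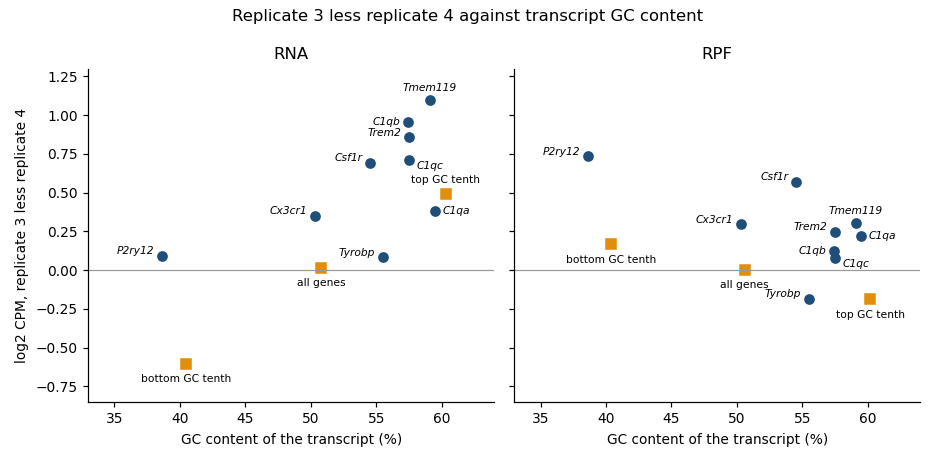
Log2 CPM of replicate 3 less replicate 4 (vertical axis, mean of basal and DHPG) against the GC content of the transcript in percent, for the 9 genes (blue) and, as orange squares, the median of all genes, that of the 10% with the highest GC content and that of the 10% with the lowest. The RNA squares run from -0.61 to 0.49 with GC content and the RPF squares from 0.17 to -0.19, and 9 of 9 microglial genes in RNA and 8 of 9 in RPFs lie above 0.

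Lists of other cells moved with replicate number as well. Summed oligodendrocyte markers had 4735 CPM in the basal RPF library of replicate 4 and 8476 to 9872 CPM in the other 4, while neuronal markers had 12860 to 13640 CPM. In basal RNA, however, the neuronal sum was lowest in replicate 4 too, with 6462 CPM against 7289 to 8376 CPM, and replicate number was called for 10 of 12 neuronal markers in each assay. Astrocyte markers had 6368 CPM in basal RPFs of replicate 1 and 7116 to 7664 CPM in the others. The sum of the other homeostatic microglial genes was lowest in replicate 4 as well, with 358.4 CPM of basal RPFs against 407.7 to 497.8 CPM, and 9 of 15 of them were lowest there in RPFs. The part of differing shares of cells in this was not tested.

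Tyrobp had a small spread in every group. Its SD over libraries on the log2 scale was 0.13 in basal RNA, 0.11 in basal RPFs, 0.046 in DHPG RNA and 0.10 in DHPG RPFs, each below the SD of 0.14 to 0.16 that counting alone would give at its depth. In DHPG RPFs Cx3cr1 had a smaller SD, 0.095. At a like depth in basal RNA, 61 to 101 reads for Tyrobp against 67 to 156 for Tmem119 and 83 to 157 for Trem2, replicate number was called for Tmem119 and Trem2 and not for Tyrobp, which does not show that Tyrobp was constant. P2ry12 had the widest basal RPF spread, 0.33 against 0.070 from counting, at the 91.6th percentile of all genes, and Tmem119 the widest basal RNA spread, 0.61 against 0.15, at the 94.6th percentile. Over the 10 RPF libraries, which include both treatments, the log2 level of Csf1r followed the mean of the other 8 with a Pearson correlation of 0.93, Cx3cr1 with 0.84, C1qb with 0.87, C1qa with 0.87, Trem2 with 0.79, P2ry12 with 0.68, C1qc with 0.63, Tmem119 with 0.42 and Tyrobp with 0.041. These libraries share replicate numbers and treatments, so the correlations are a description.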

How the data were processed

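RNA and ribosome-protected fragments of the same lysates were sequenced, and 19 libraries were analysed. The authors trimmed adapters (cutadapt), removed rRNA reads (Bowtie2), aligned to mm10 (TopHat2), collapsed reads sharing a molecular identifier and deposited RSEM expected counts, which the tables hold as unnormalized whole numbers, on whole transcripts for RNA and on coding sequences less 30 bases at each end for RPFs. Whether strand was used is not given in the sources used here. The spans of Med12l and P2ry12, of Hmgxb3 and Csf1r, and of several genes and Cx3cr1 overlap. Reads from any exon sequence that they share on opposite strands might not be told apart, and overlap of exons was not tested. A further 12 columns (replicates 6 to 8) belong to no sample analysed here and were not used.

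Calculations used R 4.3.3 with edgeR 4.0.16 (quasi-likelihood F test, TMM, filterByExpr, Benjamini-Hochberg over all genes), limma 3.58.1, DESeq2 1.42.0 and sva 3.50.0. Calls were made at an adjusted p of 0.01 for RNA and 0.05 elsewhere, and log2 CPM used a prior count of 2. Replicate number, which the study treats as a batch, was a block: deviations of same-numbered basal and DHPG libraries correlated in every pair (0.263 to 0.715 in RNA, 0.265 to 0.530 in RPFs). The DHPG RNA library of replicate 5 has no basal partner and adds nothing to the blocked difference. P-values of the DHPG tests set the DHPG less basal difference against its spread over replicates, not against that of the levels between replicates. The p-values for replicate number set the replicates against the spread left within a replicate beside treatment. In both, edgeR draws the spread of each gene toward that of the other genes. The p-values and standard errors thus rest partly on other genes and can be smaller than the replicates of 1 gene alone would give. Lengths and GC content are of the GENCODE transcript with the longest coding sequence (95.4% of genes), less 60 bases for RPFs. The 9 genes, the other lists and the rule for named genes (per list those past a threshold and the 3 highest in basal RNA, and the 10 most alike) were chosen with earlier results of these data known, and some genes that this rule names are not reported here. Alternatives were DESeq2 size factors, no filter, no replicate block, DESeq2, ComBat with DESeq2, other lengths and prior counts, limma for the ratio, removal of trends with GC content and length (loess, span 0.5, added after the data were seen) and each replicate left out. The fits were also run on simulated counts, with planted changes larger than the RPF differences of the 9 genes after DHPG and the same dispersion for all genes of an assay. That run does not show whether differences as small as those could be detected.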

Additional observations from a re-analysis of the deposited data

Results flagged for a closer look

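In the DHPG RPF libraries C1qc had 74.38 CPM in replicate 1 and 53.99 to 59.42 CPM in the other 4, and this sample was picked out because its gap to the nearest other, 0.734 of the range of the group, passed Dixon's limit for 5 samples. C1qc was highest in replicate 1 in basal RPFs too, with 64.4 CPM. Of 58 groups of 4 or 5 values screened in this way 1 was picked out, and chance picks out about 1 in 20, here 2.9.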

How the results depend on the processing

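None of the 9 genes passed the threshold in RNA or in the RPF to RNA ratio under the alternatives run, and the RPF median of the 9 was 0.083 to 0.15 over them. Calls over all genes depended on the setting, and the cause was not tested. Without the filter on low counts 7 RNAs, 96 RPFs and 4 ratios were called, with 1 of the 9 in RPFs (Csf1r, edgeR adjusted p = 0.0401, range over the alternatives 0.00199 to 1). With no replicate block 0 RNAs and 0 RPFs were called and Csf1r turned to -0.047 in RNA, while the RPF median of the 9 was 0.11 with 9 of 9 higher, and no call among the 9 changed. DESeq2 with the block called 0 RNAs and gave none of the 9 an adjusted p in RPFs, and ComBat followed by DESeq2 called 102 RNAs and 429 RPFs, with 2 of the 9 in RPFs. Leaving out 1 replicate gave 0 to 22 RNAs (0 without replicate 3, 2 without replicate 1 or replicate 4 and 22 without replicate 2), 3 to 71 RPFs (3 when replicate 2 was dropped, 10 for replicate 1, 50 for replicate 5 and 71 for replicate 3), 0 to 8 ratios (1 for replicate 1 and 8 for replicate 2) and 0 to 2 of the 9 in RPFs. Replicate number was then called for 3585 to 7107 RNAs and for 4 to 7 of the 9 in RNA. In RPFs that call was lost for C1qc and Trem2 when replicate 1 was dropped (adjusted p = 0.108 and 0.0928), for Trem2 when replicate 2 was (0.0798) and for Cx3cr1 when replicate 3 or replicate 4 was (0.390 and 0.132). Small differences turned their sign in the same way: in RNA Csf1r ran from -0.017 to 0.077, Tmem119 from -0.13 to 0.11, C1qa from -0.071 to 0.014, C1qc from -0.036 to 0.018, Trem2 from -0.054 to 0.091 and Tyrobp from -0.067 to 0.025, in RPFs Tmem119 from -0.055 to 0.092, and in the ratio Cx3cr1 from -0.047 to 0.035, Tmem119 from -0.049 to 0.15, C1qb from -0.027 to 0.11 and Trem2 from -0.0037 to 0.16. Without the filter Tmem119 was at -0.0052 in RNA, limma gave 0.018 for the Cx3cr1 ratio, and with the GC and length trend removed Csf1r was at -0.012, P2ry12 at 0.010, Tmem119 at -0.019 and Tyrobp at 0.025 in RNA. Replicate number was not called for Cx3cr1 in RNA without the filter (adjusted p = 0.0578).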

Other observations

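Over the 10 RPF libraries, the 10 genes outside the 9 whose log2 level followed the mean of the 9 most closely included Lingo1, Btd, Ifi30, Ecm1, Tmem138, Itgam, Smpdl3a, Olfml3 and B2m, with Pearson correlations from 0.933 to 0.959. Itgam and Olfml3 are on the lists of myeloid and homeostatic microglial genes. Of the 50 most alike among 13199 genes, 4 are on those lists, whose 35 tested genes had a median correlation of 0.682 against -0.026 over all genes. Lingo1, the closest at 0.959, is a membrane protein that is on neither of those lists. The libraries share replicate numbers and treatments, so these values are a description.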
